A study of Mus musculus with 9 samples.

Results

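The 10 genes described here encode inflammatory cytokines and related factors: Tnf, Il10, Il1a, Il1b, Il1rn, Ifnb1, Il12b, Il23a, Csf1 and Csf3. They were taken by gene name from a table of 34745 genes measured in mouse liver, and all 10 were found, each as 1 row. They were chosen by their measured levels in these same libraries, which were high in WT CCl4 and lower in KO CCl4, so their levels and differences are given as a description. Counts of these genes past a test's threshold are printed beside the share of all genes where that share was counted, and support nothing. Liver messenger RNA was sequenced from 9 C57BL/6 samples at 12 weeks of age, in 3 groups of 3. The WT NC group is labelled WT with the treatment NC, an abbreviation that the labels do not spell out. The WT CCl4 group is labelled WT with carbon tetrachloride, a solvent that injures hepatocytes when they metabolise it. The KO CCl4 group is labelled KO with the same solvent. The protocol names Tgfbr2f/f and Tgfbr2HKO animals, read here as WT and KO. Tgfbr2 encodes the type II receptor for transforming growth factor beta, and how the HKO allele was made is not given in the sources used here. Both CCl4 groups had 0.25 ml/kg of the solvent injected into the peritoneum 2 times a week for 4 weeks. There was no KO group without CCl4, so an effect of the genotype alone cannot be told apart from its effect under CCl4. Replicates carry the numbers in their titles (1, 2 and 3 for NC, 11, 12 and 13 for WT CCl4, 72, 75 and 79 for KO). Nothing states that they were separate animals, so p-values measure only the spread between these samples.

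Cytokines are short-lived messenger proteins that let resident macrophages (Kupffer cells), incoming leukocytes and other liver cells answer injury. Tumour necrosis factor and the interleukin-1 proteins act through receptors that switch on the transcription factor NF-kB, and NF-kB in turn drives transcription of many of these same cytokine genes. Interleukin-10 and the interleukin-1 receptor antagonist (Il1rn) restrain the response. Transcripts of many cytokines are also short-lived, because proteins such as tristetraprolin (Zfp36) bind AU-rich elements in the 3′ untranslated region and recruit the decay machinery.

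Such elements are shown here because they are the sequence feature that most of the 10 transcripts share. The 3′ untranslated regions were read from GENCODE M21 transcripts on GRCm38, and 2 motifs were searched on the transcript strand only, the pentamer ATTTA and the heptamer TATTTAT, which contains the pentamer. Neighbouring matches may share letters. Of 20571 protein-coding genes with a 3′ untranslated region of at least 30 bases, 26.4% held the heptamer, and 9 of the 10 cytokine genes did. Stretches of 30 bases with pentamers in capitals follow for the 6 genes with at least 2 heptamers.
Tnf chr17:35199678-35199707, minus strand: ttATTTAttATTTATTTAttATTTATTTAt
Il23a chr10:128296186-128296215, minus strand: gtatagatgatggttATTTAttctATTTAt
Il10 chr1:131024373-131024402, plus strand: ctcgtttgtacctctctccgaaatATTTAt
Il1a chr2:129300108-129300137, minus strand: ttttatctatgtATTTAtaaatatATTTAt
Il1b chr2:129364807-129364836, minus strand: aaccacttacctATTTATTTAtgtATTTAt
Csf3 chr11:98702985-98703014, plus strand: atagtttATTTAtctctATTTAatATTTAt
The Tnf stretch packs 5 pentamers into 30 bases, and the whole Tnf region of 764 bases held 8 heptamers. Among 2326 genes with a 3′ untranslated region within 20% of that length, 0.086% held as many. Il23a held 5 heptamers, Il10 held 4, Il1a and Il1b held 3 each, and Csf3 held 2. Ifnb1, Il12b and Csf1 held 1 each, a number that 5.3%, 19.8% and 42.8% of genes of like length reached. Il1rn, the antagonist, held neither motif in 1864 bases, as against a median of 3 pentamers in genes of like length. A match is a description of letters and not a tested site.

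**Figure D1:**
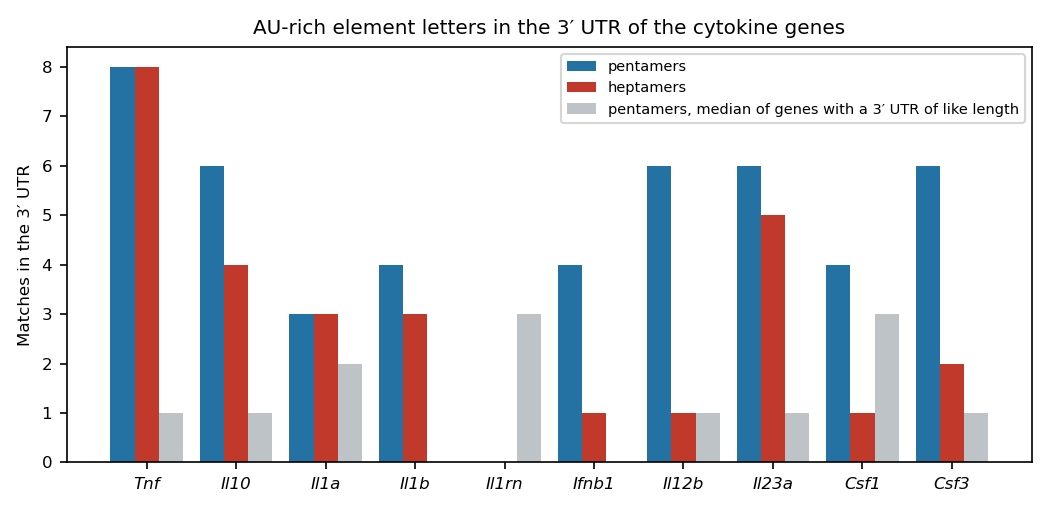
Matches of the AU-rich pentamer (blue) and heptamer (red) in the 3′ untranslated region of each cytokine gene, counted per transcript, beside the median number of pentamers in genes whose region is within 20% of the same length (grey). Tnf has 8 of each, and Il1rn has none where genes of like length have a median of 3.

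Upstream sequence was available from RefSeq (GRCm38.p6) for 7 of the 10 genes, and 4 short motifs were searched on both strands of the 250 bases before the start. Of 32851 mouse promoters, 4.93% held the NF-kB letters GGNNTTTCC, 6.75% the AP-1 letters TGANTCA, 7.13% the IRF letters GAAANNGAA and 1.55% the CRE letters TGACGTCA. Csf1 and Ifnb1 held 1 NF-kB match each on the strand opposite the gene, at positions -154 and -115 from the start. The NF-kB letters were shortened after a first search in which Ifnb1 had not matched. Il1a and Il1rn held 1 AP-1 match each, at -12 and -141, and none of the 7 held the IRF or CRE letters. The AP-1 letters are their own reverse complement, so these matches lie on both strands alike. Those 4 windows are printed to show where the matches, in capitals, lie.
Csf1 chr3:107760470-107760719, minus strand: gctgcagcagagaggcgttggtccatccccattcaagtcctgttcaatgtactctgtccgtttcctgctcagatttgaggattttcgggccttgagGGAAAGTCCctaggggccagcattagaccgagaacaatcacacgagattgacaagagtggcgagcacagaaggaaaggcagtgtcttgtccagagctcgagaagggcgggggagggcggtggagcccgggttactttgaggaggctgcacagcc
Ifnb1 chr4:88522795-88523044, minus strand: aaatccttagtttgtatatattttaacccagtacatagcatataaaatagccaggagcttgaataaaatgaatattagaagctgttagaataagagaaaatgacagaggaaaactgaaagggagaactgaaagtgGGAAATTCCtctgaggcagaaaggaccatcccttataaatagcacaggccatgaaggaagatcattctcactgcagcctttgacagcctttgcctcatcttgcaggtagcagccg
Il1a chr2:129309973-129310222, minus strand: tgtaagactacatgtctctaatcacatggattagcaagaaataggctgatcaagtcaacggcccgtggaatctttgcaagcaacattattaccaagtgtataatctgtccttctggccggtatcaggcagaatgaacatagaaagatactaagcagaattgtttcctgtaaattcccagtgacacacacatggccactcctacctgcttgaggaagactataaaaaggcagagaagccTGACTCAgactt
Il1rn chr2:24336610-24336859, plus strand: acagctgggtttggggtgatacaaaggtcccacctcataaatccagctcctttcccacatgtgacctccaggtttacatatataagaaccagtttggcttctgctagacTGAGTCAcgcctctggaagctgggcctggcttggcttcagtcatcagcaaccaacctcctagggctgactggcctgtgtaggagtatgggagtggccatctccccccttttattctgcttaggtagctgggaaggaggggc
For Il1rn this is 1 of 3 starts listed. A window without a match says only that these letters are not in it.

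Several properties of the libraries moved with the groups and stand before the values. Total counts ran from 16447353 to 20373585 per library. Mitochondrial transcripts made up 9.13 to 12.0% of counts in WT NC, 25.4 to 26.3% in WT CCl4 and 19.3 to 21.0% in KO. The labels call the cell type hepatocyte, and hepatocyte markers were abundant. Markers of macrophages, endothelium and stellate cells were present too, so the material is treated as liver tissue, in which fewer cells of a type and less RNA per cell cannot be told apart. Tgfbr2 was at 23.5 and 28.3 CPM (counts scaled to library size) in KO 72 and 79 and at 69.9 CPM in KO 75, against 75.2 to 127 CPM in WT CCl4 and 30.2 to 38.6 CPM in WT NC. KO 75 thus stands apart from the other libraries labelled KO, and counts of calls against WT CCl4 are given with and without it. The summed level of 7 macrophage markers was 179 to 242 CPM in WT NC, 1586 to 4253 CPM in WT CCl4, 271 and 636 CPM in KO 72 and 79 and 2121 CPM in KO 75. Messenger RNA of 10 exocrine pancreas genes also differed, at 13.9 to 16.8 CPM summed in WT NC, at 1358, 428 and 16.3 CPM in WT CCl4 11, 12 and 13, and at 32.8 to 209 CPM in KO. Cela1 made up most of the NC sums. Of the 10 genes, 8 were higher in WT CCl4 13 than in every NC library, and the sum without Cela1 was 10.4 CPM there against 0.276 to 2.72 CPM in NC. Mesothelial markers summed to at most 0.266 CPM in WT NC, to 39.9 to 165 CPM in WT CCl4 and to 3.82 to 29.1 CPM in KO. Of 4 mast cell and basophil markers, 2 had no count anywhere.

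CPM were scaled with edgeR's normalisation, and a gene counts as called where the adjusted p of edgeR's quasi-likelihood test over all 14134 genes tested was under 0.05. The fit takes a shared estimate of spread per gene from all 9 libraries. Standard errors and p-values of KO against NC thus also carry the spread within WT CCl4. Of the 10 cytokine genes, 7 passed the filter on low counts, and Il12b, Il23a and Csf3 did not. Those that passed may have done so through the group in which they were high.

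Tnf encodes tumour necrosis factor, the archetypal product of activated macrophages. In WT NC it gave 1 count over all 3 libraries, 0.0664 CPM in replicate 1 and none in replicates 2 and 3. In WT CCl4 it stood at 366, 134 and 24.2 CPM in replicates 11, 12 and 13. In KO it stood at 0.715, 0.990 and 1.04 CPM in replicates 72, 75 and 79. The 3 groups did not overlap, and the KO libraries lay close together, at 0.917 ± 0.176 CPM (SD, n = 3). By pooled counts WT CCl4 was 191-fold above KO, with a 95% exact binomial interval of 145 to 256 that covers counting error only. The fitted log2 difference of KO from WT CCl4 was -7.56 ± 0.98 (SE). Against NC the ratio for KO was 44.7 (7.68 to 1800), an interval set by the single NC count.

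Il10, the main cytokine that restrains macrophage activation, followed the same layout at a lower level. It had no count in any NC library. Its level was 111, 36.9 and 3.32 CPM in WT CCl4 11, 12 and 13, and 0.596, 1.27 and 1.15 CPM in KO 72, 75 and 79. WT CCl4 was at least 819-fold higher than NC, taking the NC group at its floor of 3 counts, and 49.3-fold (38.0 to 65.0) higher than KO by pooled counts. KO was at least 16.6-fold higher than NC on the same floor. The 3 groups did not overlap.

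Il1a encodes interleukin-1 alpha, which dying cells release as an alarm signal. Its level was 5.28 to 5.78 CPM in NC, 543, 201 and 35.2 CPM in WT CCl4 11, 12 and 13, and 10.4, 17.4 and 10.6 CPM in KO 72, 75 and 79. The groups were ordered WT CCl4, KO, NC with no overlap. The fitted log2 difference was 5.56 ± 0.87 for WT CCl4 over NC and -4.34 ± 0.81 for KO from WT CCl4.

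Il1b encodes interleukin-1 beta, which inflammasome enzymes cut into its active form. It was at 7.91, 7.52 and 4.37 CPM in NC 1, 2 and 3, at 246, 93.0 and 21.2 CPM in WT CCl4 11, 12 and 13, and at 23.5, 21.5 and 24.4 CPM in KO 72, 75 and 79. All 3 KO libraries lay above every NC library and at or just above WT CCl4 13, so KO and WT CCl4 overlapped. The fitted log2 difference of KO from WT CCl4 was -2.38 ± 0.69, and that of KO from NC was 1.81 ± 0.69.

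Il1rn, whose product blocks the interleukin-1 receptor without activating it, was at 2.52, 2.69 and 1.60 CPM in NC 1, 2 and 3. It was at 61.2, 26.8 and 8.27 CPM in WT CCl4 11, 12 and 13 and at 7.27, 9.90 and 4.84 CPM in KO 72, 75 and 79. Here too KO lay above NC and overlapped WT CCl4, through replicates 75 and 13. The fitted log2 differences were 3.83 ± 0.67 for WT CCl4 over NC and -2.13 ± 0.61 for KO from WT CCl4.

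Il1a and Il1b lie 54597 bases apart on chromosome 2 (GRCm38), Il1a at 129299610 to 129309972 and Il1b at 129364570 to 129371139, both on the minus strand. Each overlaps an antisense gene, Gm14023 and Il1bos, and the strand setting of the counting is not given. Those antisense genes had 2 to 8 and 0 to 6 counts per library, and reads of the partners cannot be told apart without strand. Levels per length were set side by side as CPM per kb of the principal transcript. The Il1a to Il1b ratio was 1.14 to 1.52 in WT CCl4, 0.298 to 0.557 in KO and 0.498 to 0.829 in NC. The ratio of Il1rn to Il1b overlapped between all groups, at 0.136 to 0.214 in WT CCl4, 0.109 to 0.252 in KO and 0.175 to 0.201 in NC. The ratio of Il1rn to Il1a was 0.0900 to 0.188 in WT CCl4, below its range of 0.366 to 0.556 in KO and of 0.242 to 0.394 in NC, which overlapped each other. Il10 to Tnf was 0.171 to 0.379 in WT CCl4 and 1.04 to 1.61 in KO.

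Ifnb1 encodes interferon beta, a type I interferon made after nucleic acid sensing, from a gene with a single exon. It had no count in any NC or KO library and 23.8, 9.28 and 1.47 CPM in WT CCl4 11, 12 and 13. WT CCl4 was at least 187-fold higher than NC and at least 218-fold higher than KO, each on a floor of 3 counts over the group. A count of 0 allows up to 0.141 to 0.207 CPM in a single library, so the gene was not detectable at this depth in either group.

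Il12b encodes the p40 chain shared by interleukins 12 and 23, and Il23a the p19 chain of interleukin 23. Il12b was at 4.86, 0.790 and 0.0526 CPM in WT CCl4 11, 12 and 13, at 0.138 to 0.266 CPM in NC, and in KO at 0.477 CPM in replicate 72 with no count in the others. WT CCl4 13 held a single count, below each NC library, so the higher WT CCl4 mean rested on replicates 11 and 12. Il23a was at 5.82, 3.56 and 0.369 CPM in WT CCl4 11, 12 and 13, at 0.298, 0.0943 and 0.495 CPM in KO 72, 75 and 79, and had no count in NC. Pooled counts gave 11.5-fold (6.93 to 20.6) more Il23a in WT CCl4 than in KO, although the libraries overlapped.

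Csf1 and Csf3 encode the growth factors of macrophages and of neutrophils. Csf1 was at 8.31, 8.83 and 11.0 CPM in NC 1, 2 and 3, at 36.0, 26.0 and 17.4 CPM in WT CCl4 11, 12 and 13, and at 12.2, 13.7 and 13.5 CPM in KO 72, 75 and 79. Its groups did not overlap, but its differences were the smallest of the 7 genes tested, at 1.49 ± 0.26 (log2) for WT CCl4 over NC and -1.01 ± 0.25 for KO from WT CCl4. Csf3 had no count in NC, 2.53, 0.296 and 0.0526 CPM in WT CCl4 11, 12 and 13, and none, 0.189 and 0.110 CPM in KO 72, 75 and 79. Most of its 57 counts in WT CCl4 came from replicate 11.

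**Figure D2:**
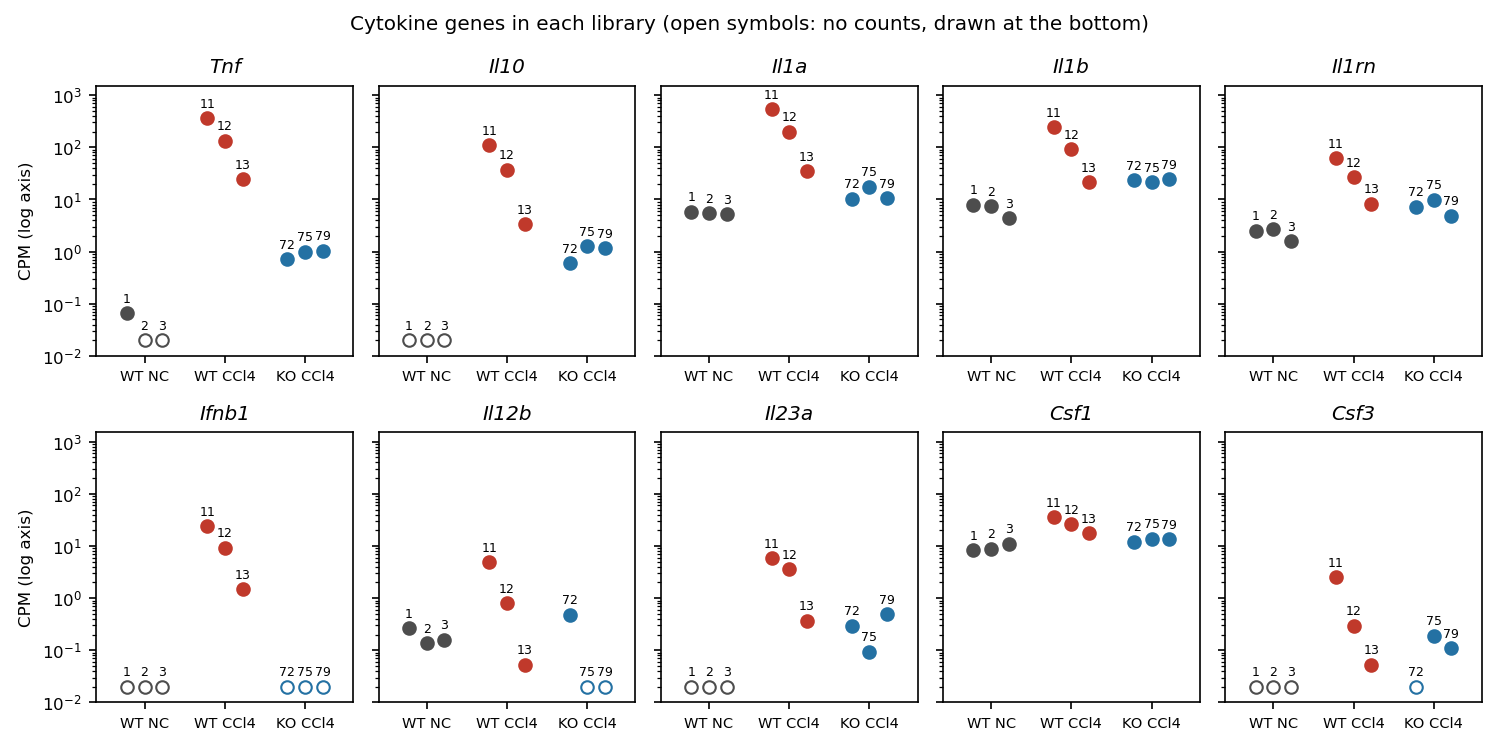
CPM (log axis) of each cytokine gene in every library, by group, with replicate numbers above the points and libraries without counts as open symbols at the bottom. Replicate 11 is the highest and replicate 13 the lowest WT CCl4 library in all 10 panels, and Ifnb1 has counts in WT CCl4 only.

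Expressed as CPM per kb of the principal transcript, the order of mean levels in WT CCl4 was Il1a (132), Tnf (107), Il1b (88.6), Il10 (38.4), Ifnb1 (15.4), Il1rn (13.0), Csf1 (6.33), Il23a (2.39), Il12b (0.977) and Csf3 (0.679). Neighbours in that order were within their spread, since the SD was about as large as the mean for most genes, for example 131 CPM per kb for Il1a. In KO the order opened with Il1b (17.0 ± 1.08 CPM per kb, SD, n = 3), Il1a (6.49 ± 2.03), Csf1 (3.14 ± 0.200) and Il1rn (2.97 ± 1.02), with Il10 (0.769 ± 0.276) and Tnf (0.559 ± 0.108) far below. In NC it opened with the same 4 genes, Il1b at 4.87 ± 1.43, Il1a at 2.79 ± 0.129, Csf1 at 2.25 ± 0.348 and Il1rn at 0.918 ± 0.237. Tnf thus ranked second in WT CCl4 and sixth in both other groups. Its rank in NC rests on a single count, above Il10, Ifnb1, Il23a and Csf3 without any. In KO, Tnf and Il10 were within their spread. The authors' FPKM rest on lengths of 8.10 kb for Il1rn and 7.95 kb for Csf1, longer than their principal transcripts of 2.47 and 4.18 kb. The same held for Tnf (3.05 against 1.64 kb), Il1b (2.35 against 1.36 kb) and Il12b (2.81 against 1.94 kb). A longer length lowers the FPKM. The order within a group and the ratios between genes depend on the length chosen.

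Counted by the threshold, 7 of 7 genes tested were higher in WT CCl4 than in NC, where 29.5% of all genes tested were called higher. In KO against WT CCl4, 4 of 7 were called lower (Tnf, Il10, Il1a and Ifnb1), where 1.61% of all genes were. Without KO 75, 7 of 9 genes tested were called lower, where 20.4% of all genes were. Without WT CCl4 13 it was 8 of 9, without WT CCl4 11 or any 1 NC library it was 1, and without KO 72, KO 79 or WT CCl4 12 it was 0. In KO against NC, 0 of 7 were called by edgeR, where 14.0% of all genes were called higher. Ifnb1, without a count in either group, could not be called there. At an unadjusted p under 0.05 edgeR gave 4 of 7, and DESeq2 called 4 of 7. Leaving out WT CCl4 11 or 13 gave 3 and 5. The share of all genes is given only for the main fit and without KO 75. Whether it moved alike in the other settings is not shown. These counts are a description of genes picked for such differences. The comparisons share libraries, the WT CCl4 group serving in both of the first and the NC group in the first and the last. Tnf, Il10, Il1a, Ifnb1 and Csf1 did not overlap between KO and WT CCl4, in the direction that 15.8% of all genes tested took without overlap.

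The KO mean as a share of the WT CCl4 mean was 0.524% for Tnf, 2.0% for Il10 and 4.93% for Il1a. It was 8.37% for Il12b, 9.11% for Il23a, 10.4% for Csf3, 19.2% for Il1b, 22.9% for Il1rn and 49.6% for Csf1. Ifnb1 had no count in KO, and Csf1 kept the largest share. These shares depended on WT CCl4 11. Without it they were 1.16% for Tnf, 5.01% for Il10, 10.9% for Il1a, 37.7% for Il12b, 15.1% for Il23a, 57.0% for Csf3, 40.5% for Il1b, 41.9% for Il1rn and 60.5% for Csf1. The share of Il12b was 0 without KO 72, that of Il23a was 6.04% without KO 79, and that of Csf3 was 15.6% without KO 72 and 5.73% without KO 75.

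Within WT CCl4 all 10 genes were highest in replicate 11 and lowest in replicate 13, an order that 32.1% of all genes tested took. For the 7 cytokine genes with at least 10 counts in each of these libraries, the ratio of 11 to 13 had a median of 15.1. It ran from 2.07 for Csf1 to 33.4 for Il10. Over 13243 genes with as many counts the median was 0.986, and 1.6% had a ratio of 5 or more. Other groups of genes differed between the same libraries: the median ratio was 2.67 for macrophage markers, 2.14 for Kupffer cell markers, 3.75 for NF-kB subunits and feedback genes, 4.32 for immediate early genes, 12.8 for endothelial adhesion molecules, 4.09 for mesothelial and 104 for exocrine pancreas genes, and 0.544 for hepatocyte genes. Their part in the cytokine levels was not tested.

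**Figure D3:**
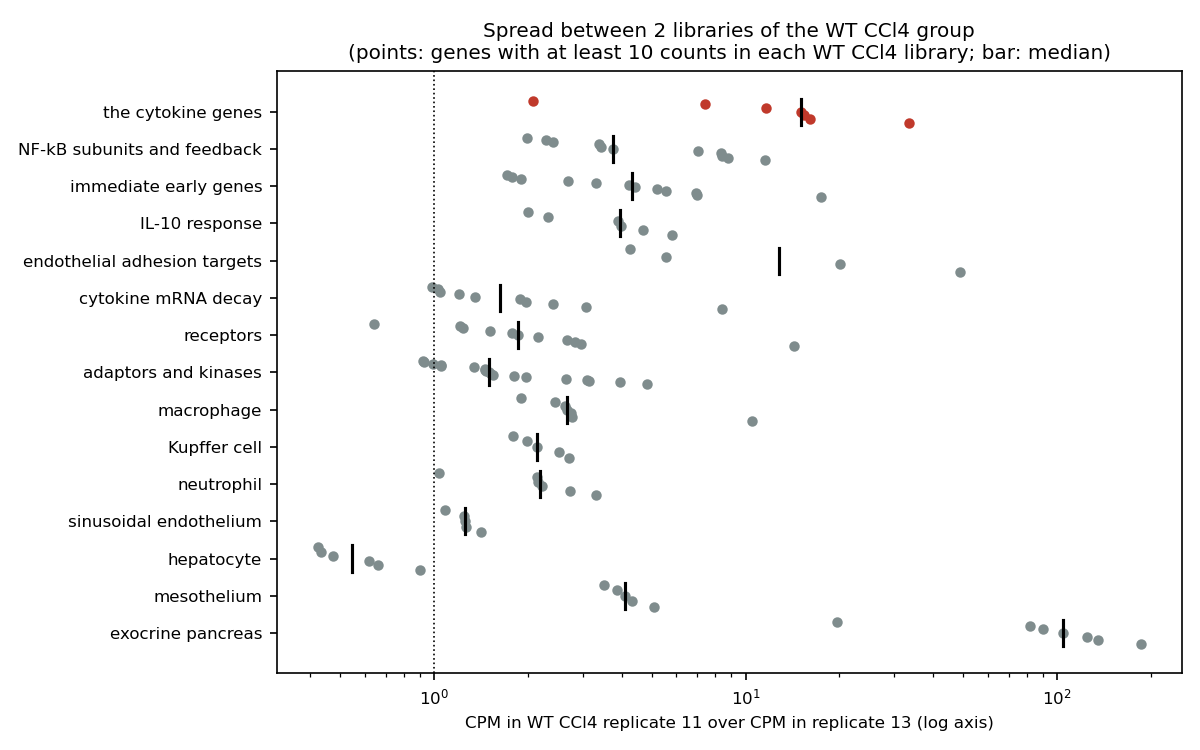
Ratio of CPM in WT CCl4 replicate 11 to CPM in replicate 13 (log axis) for the cytokine genes (red) and for listed gene groups (grey), 1 point per gene with at least 10 counts in each WT CCl4 library, with the median as a bar. The median is 15.1 for the cytokine genes, 2.67 for macrophage markers and 104 for exocrine pancreas genes.

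The macrophage markers and the cytokines were also set side by side in KO 75. For 6 of 7 macrophage and 5 of 5 Kupffer cell markers KO 75 lay within or above the WT CCl4 range, as did 73.3% of all genes tested. It did so for 4 of 4 monocyte, 6 of 8 neutrophil and 2 of 6 dendritic cell markers. For T and NK cells it was 8 of 8, for B cells 2 of 4 and for mesothelium 1 of 6. Adgre1, which encodes the macrophage surface protein F4/80, was at 204 CPM in KO 75 against 120 to 333 CPM in WT CCl4 and 30.8 and 68.4 CPM in KO 72 and 79. As for the cytokine genes, 3 of 10 (Il1b, Il1rn and Csf3) reached the WT CCl4 range in KO 75, where 73.3% of all genes tested lay within or above it. Csf3 did so on 4 counts in KO 75 against 1 in WT CCl4 13. Csf3, Il12b and Il23a failed the filter on low counts, so the share of all genes tested does not cover them. Relative to WT CCl4 13, the lowest of its group, KO 75 had 0.0409 times the Tnf, 0.384 times the Il10 and 0.496 times the Il1a level. For Il1b and Il1rn it had 1.01 and 1.2 times the level. Across the 3 KO libraries the macrophage sum spanned 271 to 2121 CPM while Tnf spanned 0.715 to 1.04 CPM and Il1b 21.5 to 24.4 CPM. The upper end of the macrophage sum is KO 75 alone, whose Tgfbr2 was at 69.9 CPM against 75.2 CPM in WT CCl4 13. The part of macrophage content in the cytokine levels was not tested.

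**Figure D4:**
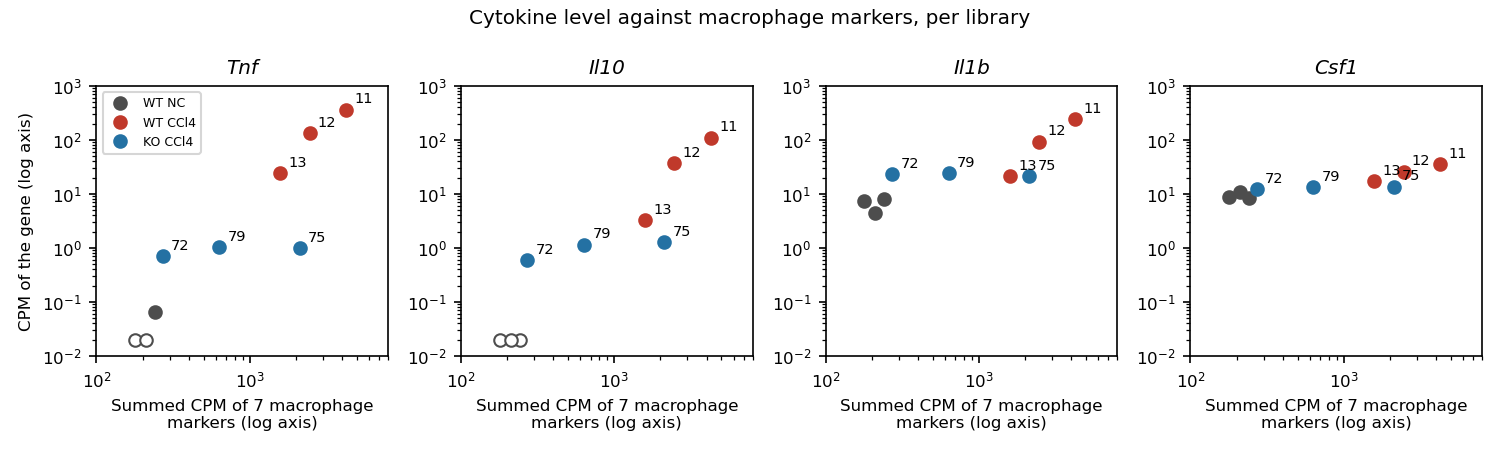
CPM of Tnf, Il10, Il1b and Csf1 against the summed CPM of 7 macrophage markers in each library (both axes log, libraries without counts as open symbols). KO 75 sits at 2121 CPM of macrophage markers, between WT CCl4 13 and 12, with Tnf at 0.990 CPM against 24.2 CPM in WT CCl4 13.

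Patterns most like each gene over the 9 libraries were found by the root mean square difference of centred log2 CPM, a description in which all genes share the libraries. For Tnf these were Cxcl2 (0.907), which encodes a neutrophil-attracting chemokine, Serpinb2 (1.32) and the chemokine gene Ccl4 (1.34), not to be confused with the solvent. Cxcl2 was at 442, 169 and 32.3 CPM in WT CCl4 11, 12 and 13, at most 0.207 CPM in NC and 4.78 to 5.70 CPM in KO. For Il10 the nearest were Serpinb2 (0.426), Sele (0.639) and Cxcl2 (0.662). For Il1a they were Tnfsf9 (0.409), Bcl2a1a (0.491) and Dusp5 (0.506). For Il1b they were Gadd45b (0.288), Gpr132 (0.383) and Nfkbiz (0.413), and for Il1rn Casp4 (0.247), Gadd45b (0.25) and Ralgds (0.35). Ifnb1 was nearest to Cd83 (0.547), Fosl1 (0.718) and Il6 (0.929). Csf1 was nearest to Fem1c (0.103) and to Nfkb1 (0.104), an NF-kB subunit, followed by Gna13 (0.138). Among the 7 cytokine genes themselves the closest pair was Il1b and Il1rn, at 0.344. These differences are not scaled to a gene's own variation, so their sizes cannot be compared between genes. The SD of log2 CPM over the 9 libraries was 0.693 for Csf1 and 4.42 for Tnf. Bcl2a1a belongs to a family of near-identical copies, so its reads may be shared.

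The genes around the cytokines were read from 10 lists, and 104 of 114 genes passed the filter. In WT CCl4 against NC, 66 rose and 6 fell, where 29.5% and 25.0% of all genes tested did, with a median log2 difference of 1.47 against 0.04 over all genes tested. In KO against WT CCl4, 2 rose and 15 fell, where 3.46% and 1.61% of all genes did, with a median of -0.84 against -0.03 over all genes. Without KO 75, 6 rose and 42 fell, where 17.2% and 20.4% of all genes did. In KO against NC, 30 rose and 2 fell, where 14.0% and 8.98% of all genes did. Without KO 75, 20 rose and 2 fell, where 9.93% and 7.37% did. The 15 genes that fell in KO passed narrowly, with adjusted p-values from edgeR of 0.0168 to 0.0493. The 17 calls became 0 without KO 72, KO 79 or WT CCl4 12, 1 without NC 1 or 2, 2 without NC 3 or WT CCl4 11, and 27 without WT CCl4 13. The 32 calls of KO against NC became 15, 12 and 15 without NC 1, 2 and 3 and 21 without KO 79. Calls against KO below carry these limits.

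Among receptors, 7 of 13 rose and 2 fell in WT CCl4. Csf3r, the receptor for the Csf3 product, rose from 1.94 ± 0.608 to 27.6 ± 11.7 CPM (SD, n = 3 each; edgeR adjusted p = 0.000976). Csf1r, the receptor for the Csf1 product and itself a macrophage marker, rose from 51.2 ± 8.37 to 463 ± 230 CPM (edgeR adjusted p = 0.00307). Il10ra rose from 5.29 ± 0.110 to 47.7 ± 32.2 CPM (edgeR adjusted p = 0.00329), and Il10rb rose by 2.65 (log2; edgeR adjusted p = 0.00143). Il1r2, a decoy receptor for interleukin-1, rose from 0.0621 to 4.87 CPM, at 10.5, 3.36 and 0.737 CPM in replicates 11, 12 and 13 (edgeR adjusted p = 0.00248). Il1rap, the accessory chain of the interleukin-1 receptor, fell from 169 ± 19.9 to 44.6 ± 9.80 CPM (edgeR adjusted p = 0.00233). Tnfrsf1a, the main receptor for tumour necrosis factor, rose from 66.6 ± 12.1 to 94.6 ± 10.4 CPM (edgeR adjusted p = 0.036). Tnfrsf1b, at 53.9 ± 9.61 and 102 ± 52.1 CPM, and Il1r1, at 63.0 ± 27.6 and 52.3 ± 6.29 CPM, did not pass.

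In KO against WT CCl4, edgeR called 0 of 13 receptors, with 3 higher and 5 lower at an unadjusted p under 0.05 and 1 higher and 5 lower by DESeq2. Without KO 75 it called 1 higher and 5 lower. Il1rap was at 130 and 115 CPM in KO 72 and 79 and at 47.0 CPM in KO 75, against 33.8 to 52.8 CPM in WT CCl4. Csf1r was at 71.5 and 142 CPM in KO 72 and 79 and at 401 CPM in KO 75, against 268 to 717 CPM in WT CCl4. It is itself 1 of the 7 macrophage markers summed above.

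Of 8 genes for maturation and release, 6 rose in WT CCl4. Adam17, the sheddase that frees tumour necrosis factor from the membrane, rose from 20.7 ± 1.97 to 66.7 ± 26.0 CPM (edgeR adjusted p = 0.00176). Rhbdf2, which carries that sheddase to the surface, rose from 8.14 ± 2.03 to 36.9 ± 15.4 CPM (edgeR adjusted p = 0.00118). Timp3, an inhibitor of the sheddase, rose from 35.2 ± 5.26 to 98.7 ± 25.6 CPM (edgeR adjusted p = 0.00139), and was the only one of the 8 called in KO against WT CCl4, where 4 of 8 were called without KO 75. There it was at 26.4, 38.2 and 26.7 CPM in replicates 72, 75 and 79 against 78.0 to 127 CPM in WT CCl4, a log2 difference of -1.70 ± 0.23 (edgeR adjusted p = 0.0168).

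Of 10 other cytokines that passed the filter among 19 listed, 8 rose in WT CCl4, among them Tgfb1 by 3.14 (log2; edgeR adjusted p = 0.00127) and Il33 by 3.20 (edgeR adjusted p = 0.00144). Il6, a cytokine that drives the acute phase response of hepatocytes, had no count in NC and 29.4, 11.5 and 0.895 CPM in WT CCl4 11, 12 and 13 (edgeR adjusted p = 0.00472). It was at 0.119, 0.141 and 0.605 CPM in KO 72, 75 and 79. The difference of KO from WT CCl4 missed the threshold (edgeR adjusted p = 0.0542) and passed it without KO 75 (edgeR adjusted p = 0.0342). In KO against WT CCl4 edgeR called 0 of these 10, with 5 lower at an unadjusted p under 0.05 and 4 lower by DESeq2. Without KO 75 it called 6 of 10 lower. Osm had no count in NC and 7.84 ± 5.97 CPM in WT CCl4 (edgeR adjusted p = 0.00181).

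NF-kB subunits and feedback genes rose in 9 of 11 cases in WT CCl4 and fell in 5 of 11 in KO against WT CCl4, or in 8 of 11 without KO 75. Tnfaip3, which encodes the inhibitor A20, was at 1.59 to 4.27 CPM in NC, at 827, 327 and 71.4 CPM in WT CCl4 11, 12 and 13 and at 19.1, 18.4 and 19.7 CPM in KO 72, 75 and 79. Its libraries fell into 3 ranges without overlap, in the layout of Tnf and Il1a. The log2 difference of KO from WT CCl4 was -4.42 ± 0.78 (edgeR adjusted p = 0.0312). Nfkbiz fell by 3.04 (log2; edgeR adjusted p = 0.0436) and Nfkbia, the inhibitor IkB alpha, fell by 2.67 (edgeR adjusted p = 0.0454), from 69.8 to 493 CPM in WT CCl4 to 33.5 to 54.2 CPM in KO. Summed over the list, NF-kB genes were at 340 to 2312 CPM in WT CCl4, 204 to 241 CPM in KO and 155 to 168 CPM in NC, and KO 75 was at 241 CPM.

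All 12 immediate early genes rose in WT CCl4, and 5 fell in KO against WT CCl4, or 6 without KO 75. Atf3 was at 407, 171 and 96.1 CPM in WT CCl4 11, 12 and 13 and at 27.9, 40.0 and 33.1 CPM in KO 72, 75 and 79, a log2 difference of -2.74 ± 0.46 (edgeR adjusted p = 0.0272). Fosb fell by 3.07 (log2; edgeR adjusted p = 0.035) and Egr2 by 3.58 (edgeR adjusted p = 0.0387). Fos, at 245 to 466 CPM in WT CCl4 and 134 to 261 CPM in KO, did not pass. Against NC, 7 of 12 rose in KO, with and without KO 75. Such genes also respond to tissue handling, whose part in these levels was not tested.

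Of 10 genes for decay of cytokine mRNA, 4 rose in WT CCl4 and 3 fell in KO against WT CCl4, or 5 without KO 75. Zfp36, which encodes tristetraprolin, rose from 140 ± 67.9 to 522 ± 294 CPM in WT CCl4 (edgeR adjusted p = 0.00703). It was at 186 to 253 CPM in KO, below the 276 to 847 CPM of WT CCl4 without passing the test (edgeR adjusted p = 0.0908). Zc3h12a, which encodes the ribonuclease regnase-1, was at 62.2, 23.2 and 7.42 CPM in WT CCl4 11, 12 and 13 and at 4.17 to 5.18 CPM in KO, and fell by 2.71 (log2; edgeR adjusted p = 0.0471). Hnrnpd, which encodes the AU-rich element binding protein AUF1, was at 14.7, 24.4 and 13.3 CPM in KO 72, 75 and 79 against 32.5 to 39.0 CPM in WT CCl4 and 33.4 to 40.3 CPM in NC. It fell against both groups (edgeR adjusted p = 0.0464 and 0.0135).

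All 4 endothelial adhesion molecules, textbook targets of tumour necrosis factor and interleukin-1, rose in WT CCl4, and 1 fell in KO against WT CCl4, or 3 without KO 75. Sele, E-selectin, was at 74.7, 24.1 and 1.53 CPM in WT CCl4 11, 12 and 13, had counts in 1 NC library (0.107 CPM), and was at 0.238 to 0.935 CPM in KO. Its log2 difference of KO from WT CCl4 was -5.87 ± 1.23 (edgeR adjusted p = 0.0421). Vcam1 rose from 14.2 ± 4.78 to 354 ± 239 CPM (edgeR adjusted p = 0.00262) and Icam1 from 11.9 ± 4.76 to 101 ± 78.4 CPM (edgeR adjusted p = 0.00236), and neither was called in KO against WT CCl4 (edgeR adjusted p = 0.158 and 0.0876). Vcam1 passed without KO 75 (edgeR adjusted p = 0.00769).

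Of 6 genes of the interleukin-10 response, 4 rose in WT CCl4, and edgeR called 0 in KO against WT CCl4, with 1 lower at an unadjusted p under 0.05 and 1 lower by DESeq2. Without KO 75 it called 1 higher and 1 lower. Socs3, a suppressor of cytokine signalling, rose from 15.3 ± 6.13 to 142 ± 110 CPM in WT CCl4 (edgeR adjusted p = 0.00236) and to 65.9 ± 7.27 CPM in KO against NC (edgeR adjusted p = 0.0295). Its KO libraries, at 57.8 to 71.8 CPM, lay within the WT CCl4 range of 44.9 to 261 CPM, while the KO libraries of Il10 lay below theirs.

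Of 10 genes for induction of interferon beta, 7 rose and 2 fell in WT CCl4. In KO against WT CCl4 1 passed and was higher, while without KO 75 2 rose and 3 fell. Irf3, the factor that switches on Ifnb1 after sensing, fell from 54.6 ± 1.75 to 31.5 ± 3.04 CPM in WT CCl4 (edgeR adjusted p = 0.00217) and was at 48.2 ± 6.02 CPM in KO (edgeR adjusted p = 0.0479 against WT CCl4). Tmem173, which encodes the sensor adaptor STING, rose by 3.04 (log2; edgeR adjusted p = 0.00171) and Irf8 by 3.02 (edgeR adjusted p = 0.00186). Of 20 adaptors and kinases, 5 rose and 2 fell in WT CCl4. Stat2 was the 1 called in KO against WT CCl4, at 77.9 to 79.7 CPM against 45.7 to 50.5 CPM (edgeR adjusted p = 0.0451). Without KO 75, 2 of the 20 rose and 1 fell.

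**Figure D5:**
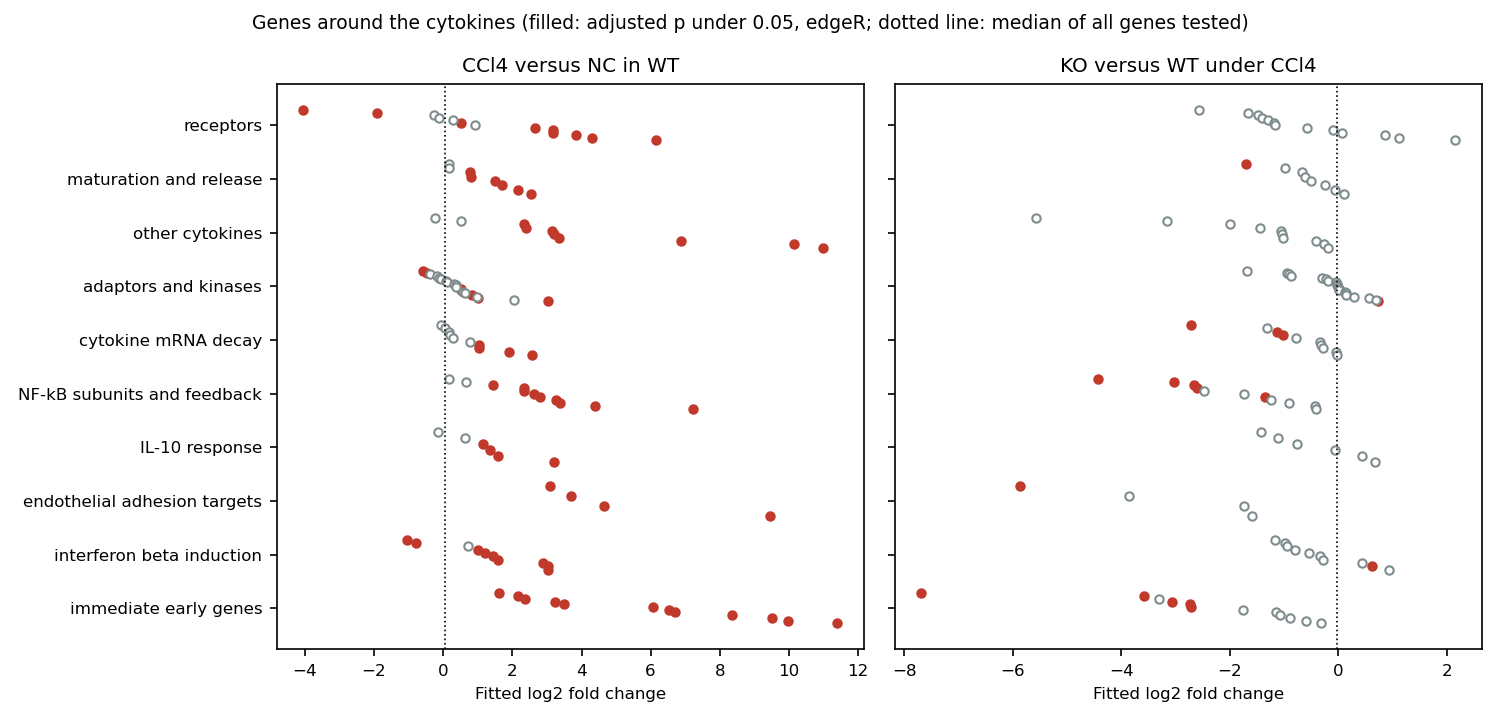
Fitted log2 fold change of each gene around the cytokines, by list, in WT CCl4 against NC (left) and in KO against WT CCl4 (right), with genes past an edgeR adjusted p of 0.05 filled and the median of all genes tested as a dotted line. All 12 immediate early genes are filled and positive on the left, and 5 of 11 NF-kB genes are filled and negative on the right.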

How the data were processed

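Messenger RNA of 9 liver samples was sequenced, and samples were grouped by their titles. Per the file headers, 1 table deposited by the authors holds whole-number counts and FPKM for each gene, in which 0 columns of per-sample values were left unused. Alignment with HISAT2 2.0.4 and processing with StringTie 1.3.0 on mm10 (GRCm38.p4) are named in the submitters' processing notes. No source used here gives the counting tool, its strand setting, the annotation release or how reads matching several genes were treated. Reads shared with near-identical or antisense genes could therefore move a count, and the authors' FPKM depend on the gene length used.

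Genes were kept by filterByExpr, and 14134 were tested with edgeR 4.0.16 (R 4.3.3) by the quasi-likelihood test on all 9 libraries with group as the only term, TMM scaling and Benjamini-Hochberg adjustment over all genes tested. The edgeR procedure was also run on simulated counts in which all groups had the same dispersion per gene. Groups of unequal spread, such as WT CCl4 and KO for Tnf, were not simulated. CPM used TMM-scaled library sizes. Totals of 16447353 to 20373585 counts set a floor, 3 counts, of 0.141 to 0.207 CPM. Ratios of pooled counts carry 95% exact binomial intervals that cover counting error only. Root mean square differences used log2 CPM with a prior count of 2. Alternatives were DESeq2 1.42.0, its size factors, no filter, limma 3.58.1 on log2(FPKM + 1), the 6 libraries compared alone, and leaving out each library.

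The cytokine genes and the gene lists were chosen with earlier results of these data known. The NF-kB and IRF promoter motifs were shortened by 1 letter after a first search, in which Csf1 but not Ifnb1 matched the longer NF-kB form and no gene matched the longer IRF form. Named were all 10 cytokine genes, per list up to 3 genes with the smallest p past the threshold, 9 further genes (Tgfbr2, Il6 and 7 receptors), and the 3 nearest patterns. Adgre1, the antisense partners and values of named genes in comparisons where the rule did not name them (Fos, Zfp36, Il1rap, Vcam1 and Icam1 in KO, for example) were added after their values were seen.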

Additional observations from a re-analysis of the deposited data

How the results depend on the processing

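No paired analysis was possible because the groups share no replicate numbers. For the cytokine genes called in the main fit, no fold change reversed its sign under any alternative. Where they were called, their libraries did not overlap between the groups. A reversal was thus hardly possible, and its absence supports nothing. A change of sign in a gene not called was recorded only as moved, which covers every gene in KO against NC. Ifnb1 was left out of that comparison. In WT CCl4 against NC 100 of 105 values stayed within the spread, in KO against WT CCl4 102 of 105 and in KO against NC 81 of 89. The spread here is the SD of the gene's log2 CPM within the 2 groups compared. It is wide for genes that differ greatly between WT CCl4 11 and 13, so staying within it is a weak criterion. The counts of calls in KO against WT CCl4 depended on the setting. They stand without the share of all genes in each setting, so they do not show whether calls over all genes moved alike. The 4 cytokine genes became 7 with DESeq2 and 0 with the 6 libraries compared alone, and ranged from 0 to 8 when 1 library was left out. The 17 genes around them became 42 with DESeq2 and 0 with those 6 libraries, and ranged from 0 to 48. The cytokine count was 0 without KO 72, KO 79 or WT CCl4 12, 1 without WT CCl4 11 or any NC library, 8 without WT CCl4 13 and 7 without KO 75. The count of genes around them was 0 without KO 72, KO 79 or WT CCl4 12, 1 without NC 1 or 2, 2 without NC 3 or WT CCl4 11, 27 without WT CCl4 13 and 48 without KO 75. In KO against NC, the 0 cytokine genes became 4 with DESeq2 and 4 with the 6 libraries alone, and ranged from 0 to 5, reaching 3 without WT CCl4 11 and 5 without WT CCl4 13. The 32 genes around them became 12 with limma on log2(FPKM + 1) and ranged from 12 to 37, at 15, 12 and 15 without NC 1, 2 and 3 and at 21 without KO 79. In WT CCl4 against NC the counts ranged from 7 to 9 and from 61 to 78 when 1 library was left out. Depth limits Il12b, Il23a and Csf3, which had 6 to 194 counts in the CCl4 groups, and the NC values of Tnf, Il10 and Ifnb1.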
